A study of Mus musculus with 6 samples.

Results

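Ager, Hopx, Aqp5, Rtkn2, Akap5 and Clic5 are 6 genes by which alveolar type 1 (AT1) cells are recognized, and they were followed here in RNA from endothelial cells (ECs) of the mouse lung. They were taken by name, as known AT1 markers, from the 24063 gene symbols counted, by a choice made with earlier results of these data known, and all 6 were abundant enough to be tested among 16598 genes. Bulk RNAseq had been performed on ECs isolated with anti-CD31 beads from the lungs of male C57BL6 mice, 8 weeks old by the labels (the methods give another age), with no mutant allele or drug in either group. The sham-operated mice gave 3 libraries, and another 3 came 7 days after unilateral pneumonectomy (PNX), in which 1 lung is taken out and the lung that stays regrows, with 2 mice pooled in each library. The question of the comparison was how gene expression in lung ECs changes while the lung regrows. Replicates 1 and 2 of both groups came from an earlier deposit and replicate 3 of both from a later one.

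AT1 cells are thin, flat epithelial cells that cover most of the alveolar surface and form, with the capillary endothelium beneath them, the barrier across which gases are exchanged. They arise from alveolar type 2 (AT2) cells, the surfactant-making epithelium, during repair and regrowth of the lung. They are not ECs, but they lie against them.

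Replicates 1 and 2 of a group differed by little more than counting error, with a chi-square per degree of freedom of 1.75 in sham and 1.57 in PNX, against 67.9 to 86.4 for pairs that included replicate 3. They were therefore summed, which left 2 samples per group and 4 in all, and p-values measured only the spread between these samples. Total counts ranged from 29526989 to 81282871 per library. Levels are given as CPM, the count of a gene relative to the library's total, scaled between libraries by TMM, and comparisons between genes use the deposited TPM, which is corrected for transcript length, of 1 transcript per gene.

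Messages of the 6 AT1 genes were present in these EC libraries, those of Ager, Hopx and Clic5 at the highest levels. Which cells made them was not tested. Ager, the receptor for advanced glycation end products and the most used AT1 marker, had a TPM of 770, 783 and 291 across sham replicates 1, 2 and 3, and of 579, 588 and 99.8 across the PNX replicates. Pecam1, which encodes the CD31 used for the isolation, had a TPM of 769 to 955 in the sham and 808 to 928 in the PNX libraries. On this measure Ager lay below Pecam1 in every library. With TPM summed over transcripts, the mean over the 6 libraries was higher for Ager, 4008 against 1795. That sum takes 7 transcripts of Ager with nearly the same counts and 2 of Pecam1, so it may hold the same reads of Ager several times. In PNX replicate 3 Ager was still lower, with a summed TPM of 772 against 808 for 1 transcript of Pecam1 alone. From the highest to the lowest TPM the order was Ager, Hopx, Clic5, Aqp5, Akap5 and Rtkn2 in 5 of the 6 libraries. In PNX replicate 3 Clic5 came first with a TPM of 176, followed by Hopx with 124 and Ager with 99.8. This order rests on 1 of 7 transcripts of Ager and 1 of 3 of Hopx. It turned with TPM summed over transcripts, which was 772 for Ager, 393 for Hopx and 176 for Clic5 in that library. The summed order may come from reads counted on each transcript, as Clic5 has only 1. The ranges of TPM over the 6 libraries overlapped between Ager (99.8 to 783), Hopx (124 to 565) and Clic5 (176 to 357). Aqp5, at a TPM of 24.0 to 117, lay below Clic5 in every library, and its range overlapped that of Akap5 (6.26 to 47.2), which overlapped that of Rtkn2 (2.70 to 35.8).

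**Figure D1:**
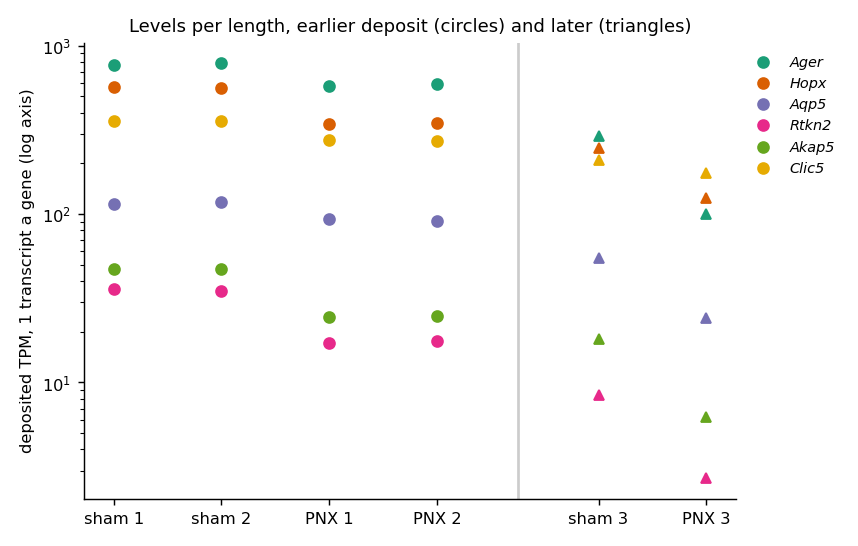
Deposited TPM (log axis) of the 6 AT1 genes in each library, with 1 point per gene and library, circles for the earlier and triangles for the later deposit. The points of the later deposit lie lower for all 6 genes. Ager, first in the other libraries, is below Clic5 and Hopx in PNX replicate 3 at a TPM of 99.8. That order turns when TPM is summed over transcripts (772 for Ager, over 7 transcripts of nearly the same counts).

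The loci lie on separate chromosomes except for 2 on chromosome 17 (GRCm38, GENCODE vM21). Ager is at chr17:34597862-34600936 on the plus strand with 10 exons in the annotated transcript, and Clic5 at chr17:44188584-44280172 on the plus strand with 6. Hopx is at chr5:77086988-77115121 on the minus strand with 3 exons, and Rtkn2 at chr10:67979570-68059740 on the plus strand with 13. Aqp5 is at chr15:99590782-99594829 on the plus strand with 4 exons, and Akap5 at chr12:76324891-76334153 on the plus strand with 2. Hopx overlaps the antisense gene Hopxos and Rtkn2 the antisense gene Gm16212. The libraries were stranded, but whether counting used the strand is not stated, so reads of these pairs may not have been told apart.

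Ager was counted on 7 RefSeq transcripts with nearly the same counts and Hopx on 3, whereas the other 4 genes had 1 transcript each. In sham replicate 1 the transcripts of Ager summed to 270992 counts, while the most counted of them had 38745. The summed CPM of Ager is therefore several times that of a single transcript. It is compared here between libraries, and it also enters the sum of the 6 genes, which it raises. Whether reads shared by transcripts were counted on each is not stated. The lowest count of any of the 6 on its most counted transcript was 125, for Rtkn2 in PNX replicate 3, and the highest was 66755, for Clic5 in sham replicate 1.

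Among 6 promoter windows of 250 bases before the start (RefSeq, GRCm38.p6), found for 5 of the 6 genes (Hopx has 2 windows and Rtkn2 has none in the table used), 3 held a GC box, GGGCGG on either strand, against 32.7% of 32851 promoters. None held GGAATG (TEAD factors, present in 12.6% of all promoters), CAAGTG (NKX2-1, 11.6%) or the core promoter element TATAAA (12.4%) on either strand. The windows of Akap5 (chr12:76324641-76324890, plus strand, 3 GC boxes) and Clic5 (chr17:44188322-44188571, plus strand, 2 GC boxes) are shown. They were the only windows with a GC box that lay outside the gene as annotated by GENCODE. Of the Aqp5 window, the other with a GC box, 246 of the 250 bases lay inside the gene. All 250 bases of 1 Hopx window did as well. GC boxes are in capitals, and a match is a description of the letters only.
Akap5: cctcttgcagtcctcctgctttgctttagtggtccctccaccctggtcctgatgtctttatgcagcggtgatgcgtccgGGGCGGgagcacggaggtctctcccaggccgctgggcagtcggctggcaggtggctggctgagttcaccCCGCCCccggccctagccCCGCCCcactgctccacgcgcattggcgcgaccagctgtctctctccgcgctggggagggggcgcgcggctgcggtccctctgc
Clic5: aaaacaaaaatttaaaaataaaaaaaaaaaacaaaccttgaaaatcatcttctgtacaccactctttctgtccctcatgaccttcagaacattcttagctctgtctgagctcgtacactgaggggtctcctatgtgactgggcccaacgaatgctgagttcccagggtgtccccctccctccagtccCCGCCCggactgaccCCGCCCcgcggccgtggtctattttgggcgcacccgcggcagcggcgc

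In each deposit, all 6 AT1 genes had lower levels in PNX than in sham, which was the case for 39.3% of the 16598 genes. The genes had been set out for description by library because their direction was thought to differ between replicate 3 and replicates 1 and 2. It did not, under any of 4 scalings, and what differed was the size. The median log2 ratio of PNX to sham over the 6 genes was -0.55 for the earlier and -1.36 for the later deposit, beside -0.03 and -0.000779 over all genes. In bulk RNA, fewer cells of a type and less RNA per cell cannot be told apart.

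The first of the genes by role are the receptor Ager and the channel proteins Aqp5 and Clic5. Ager had sham levels of 3398, 3456 and 1280 CPM in replicates 1, 2 and 3 and PNX levels of 2564, 2609 and 439 CPM. Values of other genes are given in the same order of replicates. The earlier PNX libraries lay above the later sham library, so that the groups overlapped. Within deposits the ratio of PNX to sham was 0.755 (exact 95% interval 0.746 to 0.763) for the earlier deposit and 0.343 (0.326 to 0.362) for the later. Intervals of this kind cover counting error only. Aqp5, a water channel of the apical membrane of AT1 cells, had sham levels of 71.3, 72.6 and 33.8 CPM and PNX levels of 58.2, 56.5 and 14.8 CPM. Its groups overlapped in the same way, with a ratio of 0.798 (0.776 to 0.822) for the earlier and 0.438 (0.391 to 0.489) for the later deposit. Clic5, a chloride intracellular channel protein that associates with the actin cytoskeleton and that ECs can also express, had sham levels of 837, 834 and 489 CPM and PNX levels of 644, 639 and 412 CPM. It was the least different of the 6 genes in the later deposit and the only one whose ratio there, 0.842 (0.823 to 0.862), was nearer to 1 than in the earlier deposit, 0.768 (0.762 to 0.775).

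Rtkn2, Akap5 and Hopx, which act inside the cell in signalling and gene regulation, had the 3 lowest ratios in the earlier deposit. Rtkn2 had sham levels of 56.2, 54.8 and 13.2 CPM and PNX levels of 26.8, 28.0 and 4.23 CPM. Its PNX libraries of the earlier deposit were above the later sham library, and the ratio was 0.492 (0.474 to 0.512) for the earlier and 0.321 (0.261 to 0.392) for the later deposit. Akap5, an anchoring protein for protein kinase A, had sham levels of 126, 126 and 48.1 CPM and PNX levels of 65.7, 66.3 and 16.6 CPM. Again the groups overlapped, with ratios of 0.525 (0.512 to 0.538) and 0.346 (0.312 to 0.383). Hopx, an atypical homeodomain protein that binds no DNA itself and marks AT1 cells and their precursors, had sham levels of 853, 849 and 369 CPM and PNX levels of 521, 530 and 187 CPM. Its ratios, 0.617 (0.608 to 0.627) and 0.505 (0.478 to 0.534), were closer to each other than those of Ager or Aqp5. For 0 of the 6 genes did the 3 PNX libraries all lie below the 3 sham libraries, a pattern found for 18.0% of all genes.

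**Figure D2:**
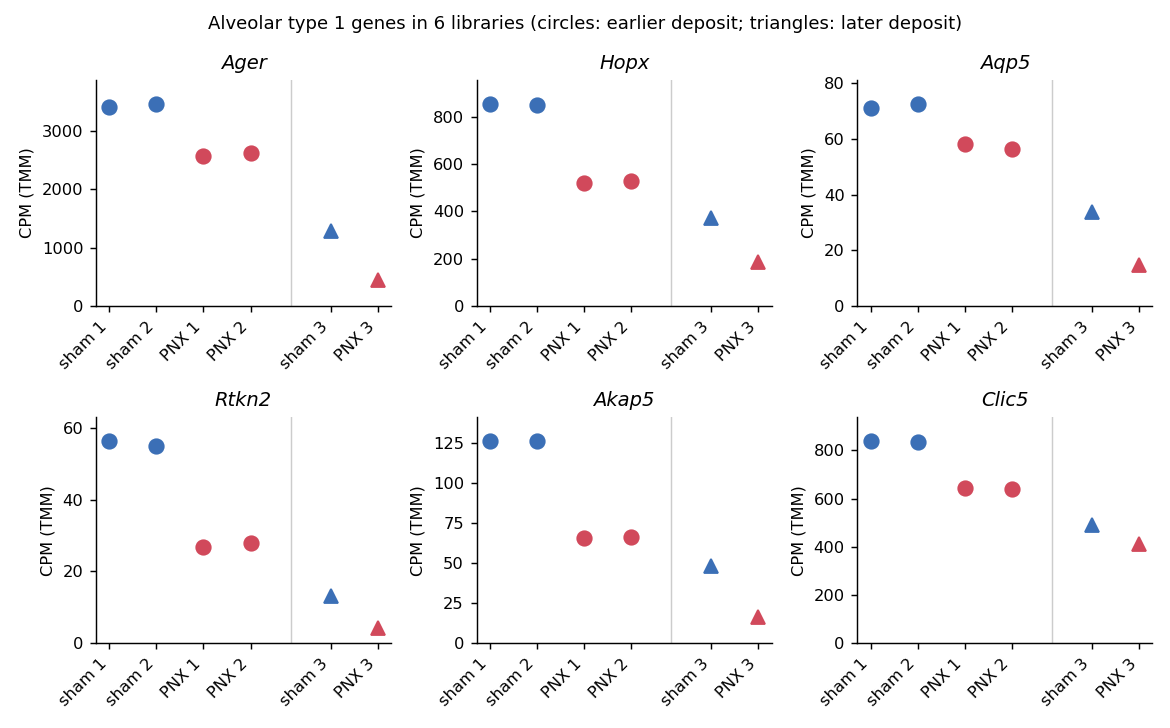
CPM (TMM-scaled) of each AT1 gene in the 6 libraries, blue for sham and red for PNX, with circles for the earlier and triangles for the later deposit and each vertical axis from 0. Within each deposit the PNX points lie below the sham points for all 6 genes, while the PNX points of the earlier deposit lie above the sham point of the later one.

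Across the 4 samples the difference was within the spread between samples for all 6 genes. The mean of Ager was 2359 ± 1523 CPM in sham and 1517 ± 1523 CPM in PNX (SD, n = 2 samples per group), a log2 fold change of -0.64 with an SE of 0.92. For Rtkn2 the means were 34.5 ± 30.1 and 15.8 ± 16.4 CPM (SD, n = 2), a log2 fold change of -1.11 with an SE of 1.05. For Akap5 they were 87.2 ± 55.1 and 41.5 ± 35.1 CPM, a log2 fold change of -1.07 with an SE of 0.78. The log2 fold changes of the others were -0.78 (SE 0.63) for Hopx, -0.54 (SE 0.71) for Aqp5 and -0.33 (SE 0.35) for Clic5. The edgeR quasi-likelihood test gave Benjamini-Hochberg adjusted p-values from 0.674 for Akap5 to 0.858 for Ager. At an adjusted p under 0.01 and a fold change above 1 on the log2 scale, 0 of the 6 genes were called, as were 0 of all 16598 genes (0%), and 0 of the 6 had an unadjusted p under 0.05, which 2076 of all genes had. With limma-voom 0 genes were called, with 2174 at an unadjusted p under 0.05, and DESeq2 called 572 genes and 0 of the 6.

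The 2 samples of each group came from different deposits, and fitting the deposit as a block of replicates changed the calls. With this replicate block Rtkn2 fell by 1.26 on the log2 scale (SE 0.15, edgeR adjusted p = 0.00146) and Akap5 fell by 1.21 (SE 0.14, edgeR adjusted p = 0.00145). These were the 2 of 6 genes called lower, against 1.23% of all genes. At an adjusted p under 0.05 and any fold, 5 of the 6 were lower, against 10.1% of all genes. Hopx fell by 0.84 (SE 0.11, edgeR adjusted p = 0.00250), Ager fell by 0.97 (SE 0.25, edgeR adjusted p = 0.0325) and Aqp5 fell by 0.72 (SE 0.18, edgeR adjusted p = 0.0313), whereas Clic5 had a log2 fold change of -0.31 (SE 0.10, edgeR adjusted p = 0.0685). The block leaves 1 residual degree of freedom. Without PNX replicate 1 the blocked fit called 0 of the 6, with an edgeR adjusted p of 0.0150 for Rtkn2 and 0.0141 for Akap5.

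Levels were also lower in the later deposit than in the earlier one. The log2 ratio of later to earlier level in sham was -2.08 for Rtkn2, -1.42 for Ager, -1.39 for Akap5, -1.21 for Hopx, -1.09 for Aqp5 and -0.78 for Clic5. In PNX it was -2.70 for Rtkn2, -2.56 for Ager, -1.99 for Akap5, -1.96 for Aqp5, -1.49 for Hopx and -0.64 for Clic5. For 5 of the 6 genes the difference exceeded 1 in both groups, against 0.862% of all genes, and Clic5 was the exception. With 1 library in each group of the later deposit, this difference has no replicate check. The 6 genes did not move in step across deposits. The ratio of the TPM of Ager to that of Clic5 was 2.15 and 2.20 (sham) and 2.11 and 2.17 (PNX) in the earlier deposit, but 1.39 (sham) and 0.566 (PNX) in the later one. That of Rtkn2 to Aqp5 was 0.311 and 0.298 in sham and 0.182 and 0.195 in PNX of the earlier deposit, and 0.154 in sham and 0.113 in PNX of the later one. Thus Ager and Clic5 kept a similar ratio between groups of the earlier deposit, while Rtkn2 was lower relative to Aqp5 in PNX than in sham within both deposits.

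A wider list of 19 AT1 genes, from general knowledge, was lower in PNX in both deposits for 15 genes and higher for 2 with counts summed over transcripts. Of all genes 39.3% were lower and 5970 of 16598 higher in both. Cryab, among the 15, had a log2 ratio of -0.000555 in the earlier deposit by summed counts and of 0.0097 on its most counted transcript, so its direction there depends on the measure. The median log2 ratio of the 19 genes was -0.36 for the earlier and -0.83 for the later deposit. Across the 4 samples without the block 0 of the 19 were called and 2 had an unadjusted p under 0.05 by edgeR, which 2076 of 16598 genes had. With the block 2 were called lower, against 1.23% of all genes. At an adjusted p under 0.05 there were 9 lower, against 10.1% of all genes, and 1 higher, against 1912 of 16598 genes.

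The 2 called genes were Cyp2b10, a cytochrome P450, and Sec14l3, a lipid-binding protein. Cyp2b10 had sham levels of 89.4, 88.5 and 31.4 CPM and PNX levels of 41.1, 40.8 and 8.25 CPM, and fell by 1.46 on the log2 scale with the block (edgeR adjusted p = 0.00158). Sec14l3 had sham levels of 469, 470 and 356 CPM and PNX levels of 265, 269 and 121 CPM, so that its groups did not overlap, and fell by 1.18 (edgeR adjusted p = 0.00337). Cldn18, a tight junction claudin of the alveolar epithelium, had sham levels of 620, 637 and 295 CPM and PNX levels of 436, 422 and 104 CPM, and fell by 1.02 with the block (edgeR adjusted p = 0.0130). Pdpn is the mucin-type membrane protein podoplanin that lymphatic ECs and mesothelial cells also make. It was the 1 gene of the list higher at an adjusted p under 0.05 with the block. It had sham levels of 73.0, 74.6 and 40.3 CPM and PNX levels of 93.2, 96.7 and 68.8 CPM and rose by 0.56 with the block (edgeR adjusted p = 0.0122). Krt7, the other gene higher in both deposits, had log2 ratios of 0.15 in the earlier and 0.19 in the later. Cryab was the most abundant of the list by TPM summed over transcripts. By the TPM of 1 transcript, Sec14l3 and Gprc5a were higher than Cryab in every library except PNX replicate 3. Cryab had sham levels of 231, 224 and 142 CPM and PNX levels of 229, 225 and 138 CPM, with a log2 fold change of -0.02 with the block. In the later deposit 10 of the 19 were lower than in the earlier by more than 1 on the log2 scale in both groups. The same held for 0.862% of all genes.

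**Figure D3:**
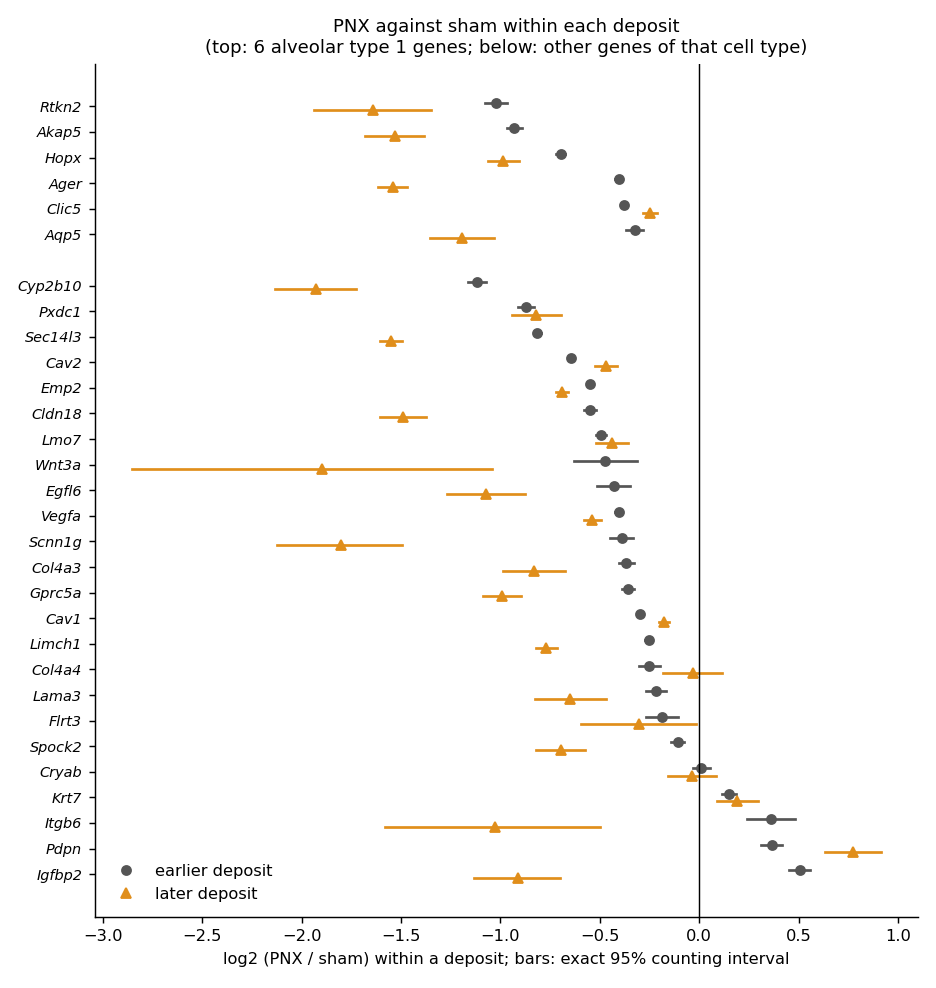
Log2 ratio of PNX to sham within the earlier (grey circles) and the later deposit (orange triangles) for the 6 AT1 genes (top) and for the wider list with the genes that ECs share, with exact 95% intervals that cover counting error. All 6 genes lie left of 0 in both deposits, Rtkn2 farthest at -1.02 and -1.64, and Pdpn and Krt7 lie right of 0 in both.

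Genes listed, from general knowledge, as shared by AT1 cells and ECs were lower in PNX in both deposits for 5 of 5, against 39.3% of all genes. Their medians were -0.41 for the earlier and -0.55 for the later deposit. These were Cav1 and Cav2, which form caveolae, Emp2, a tetraspan membrane protein, Vegfa, the growth factor for ECs, and Limch1. The paper places VEGF mainly in AT1 cells. It reports more VEGF protein in the lungs and serum of C57BL6 mice 7 days after PNX. It also reports more mRNA of 1 Vegf isoform in the lungs of heterozygous Lep^ob/+ mice. Those measures were of lung and serum, whereas the RNA here came from bead-isolated ECs. Which cells made these messages was not tested. None of the 5 was called with or without the block, and at an adjusted p under 0.05 with the block 4 of the 5 were lower, Cav1 being the exception. Of all genes 10.1% were lower at that threshold. Vegfa had sham levels of 4209, 4328 and 2808 CPM and PNX levels of 3182, 3246 and 1925 CPM, and its groups overlapped. It fell by 0.48 with the block (edgeR adjusted p = 0.0422). The log2 ratio of later to earlier deposit, with medians of -0.59 in sham and -0.74 in PNX, was nearer to 0 than that of the 6 AT1 genes, whose medians were -1.30 and -1.97.

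Transcription factors and co-factors that direct AT1 fate went in both directions. Of 6, 4 were lower and 2 higher in PNX in both deposits, against 39.3% of all genes lower and 5970 of 16598 higher. With or without the block 0 were called. At an adjusted p under 0.05 with the block 2 were lower and 1 higher, against 10.1% of all genes lower and 1912 of 16598 higher. Nkx2-1, the lineage factor of the lung epithelium, had sham levels of 50.4, 48.2 and 28.4 CPM and PNX levels of 33.1, 33.3 and 11.5 CPM and fell by 0.90 with the block (edgeR adjusted p = 0.00881). Klf5 fell by 0.81 (edgeR adjusted p = 0.0195). Gata6, which other lung cells also express, had sham levels of 16.6, 17.3 and 13.8 CPM and PNX levels of 25.1, 26.8 and 24.4 CPM and rose by 0.71 (edgeR adjusted p = 0.00341), with no overlap between groups. Yap1 and Tead1 of the Hippo pathway had log2 fold changes of -0.26 and -0.23 with the block and Wwtr1, which encodes TAZ, 0.19, none of them past an adjusted p of 0.05.

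Most other epithelial genes were also lower in PNX, and their medians between deposits lay nearer to 0 than those of the AT1 genes. Of 12 AT2 genes, 12 were lower in PNX in both deposits, with medians of -0.50 and -1.25. With the block 3 were called and 12 were lower at an adjusted p under 0.05. Over all genes these shares were 39.3%, 1.23% and 10.1%. The summed level of the AT2 genes was 6001 to 6407 CPM in sham and 2334 to 3904 CPM in PNX. Sftpc, the AT2-specific surfactant protein, had sham levels of 2370, 2360 and 2501 CPM and PNX levels of 1511, 1502 and 818 CPM. In sham the later AT2 level was thus near the earlier one, with a median difference of 0.02 on the log2 scale, against -1.30 for the 6 AT1 genes. The largest part of the sum of the 6 AT1 genes was Ager, counted on its 7 transcripts. In PNX replicate 3 Ager made up 439 and Clic5 412 of 1074 CPM. That sum of the 6 amounted to 0.890 and 0.896 of the AT2 sum for sham replicates 1 and 2 and to 0.349 for sham replicate 3. In PNX it was 0.994, 1.01 and 0.460, which was above sham within each deposit. The medians over genes did not show this, being -0.55 and -1.36 for the AT1 genes and -0.50 and -1.25 for the AT2 genes.

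Of 7 pan-epithelial genes 6 were lower in both deposits, against 39.3% of all genes, with summed levels of 166 to 186 CPM in sham and 107 to 139 CPM in PNX. Club and ciliated airway genes had median log2 fold changes of -1.61 and -1.21 over the 4 samples without the block. A list of 8 genes of transitional alveolar epithelium, the state between AT2 and AT1 cells, had one of 0.18. In that fit the 6 AT1 genes had a median of -0.71 and all genes one of -0.01, and 0 of all 16598 genes were called. With the block 5 of 6 club, 4 of 6 ciliated and 0 of 8 transitional genes were called lower, against 1.23% of all genes.

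Markers of ECs and of other cells that bead isolation could hold were measured beside them. The 8 EC genes summed to 6937 to 8335 CPM in sham and 6454 to 7130 CPM in PNX with a median log2 fold change of -0.16. Without the block 0 were called, as were 0 of all 16598 genes. The sum of the 6 AT1 genes was 0.646, 0.647 and 0.322 of the EC sum for sham replicates 1, 2 and 3 and 0.548, 0.551 and 0.166 for those of PNX. It was thus lower in PNX than in sham relative to ECs within each deposit. The size of this ratio depends on the 7 transcripts on which Ager was counted, so it is read only between libraries. Aerocyte capillary genes, of the capillary ECs that lie closest to AT1 cells, had a median of -0.29 and lymphatic EC genes one of 0.16. Fibroblast genes had a median of 2.14 with 4 of 6 higher (3 collagen genes and Dcn) and 2 lower (Pdgfra and Tcf21) in both deposits. Mesothelial genes had a median of 1.11, smooth muscle and pericyte genes one of 0.01 and leukocyte genes one of 0.13. With the block 4 of 6 fibroblast and 4 of 5 mesothelial genes were called higher, against 645 of 16598 genes, and 0 of the 8 EC genes in either direction. Fibroblast genes summed to 1090 to 1260 CPM in sham and 3370 to 4890 CPM in PNX, mesothelial genes to 99.8 to 300.3 and 257 to 766 CPM, and leukocyte genes to 1612 to 3135 and 3333 to 3450 CPM. Of the 6 leukocyte genes 3 were higher and 3 lower in both deposits, while over all genes 39.3% were lower and 5970 of 16598 higher. Much of the leukocyte sum was Chil3, with sham levels of 921, 915 and 1732 CPM and PNX levels of 2581, 2519 and 2132 CPM. The part of these cell types in the levels of the AT1 genes was not tested.

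**Figure D4:**
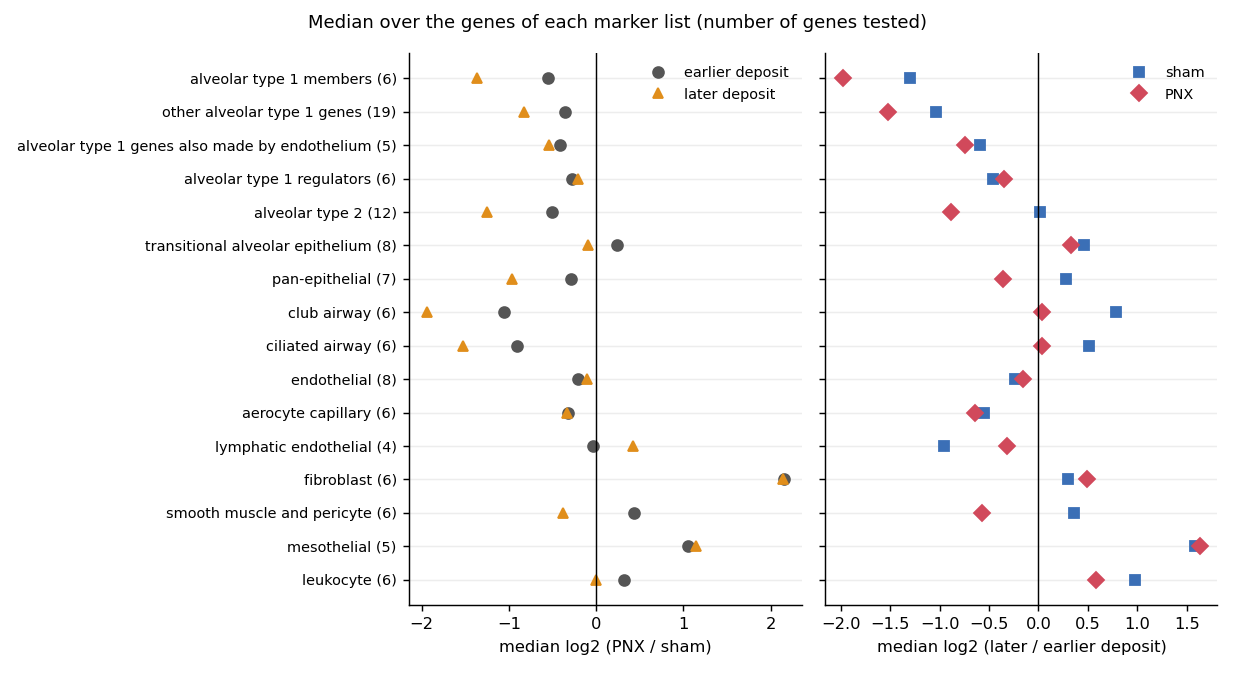
Median log2 ratio over the genes of each marker list (number of genes tested in parentheses), PNX to sham within each deposit on the left and later to earlier deposit within each group on the right. The 6 AT1 genes lie at -0.55 and -1.36 on the left and at -1.30 and -1.97 on the right, where AT2 genes lie at 0.02 in sham and -0.89 in PNX.

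The genes with the pattern most like the mean of the 6 AT1 genes were taken as the 10 with the smallest root mean square difference of centred log2 CPM over the 6 libraries, among 14284 genes. Among them were Hist1h2be, LOC101056149, Cldn18, Akr1c14, Sema3e, Slc6a14, Abca5, Bdnf and Gm4956. The difference was 0.0779 for Hist1h2be, 0.0834 for LOC101056149 and 0.0995 for Cldn18 on the log2 scale and 0.142 for Gm4956, against 0.130 to 0.513 for the 6 genes themselves. Cldn18 was the 1 gene among the 10 that belonged to the wider AT1 list. Hist1h2be has near-identical histone copies, so its counts are uncertain. The 6 libraries hold only 4 samples with 1 difference between deposits and 1 between groups, which many genes can share.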

How the data were processed

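ECs had been isolated from mouse lungs with anti-CD31 beads and sequenced as TruSeq stranded mRNA libraries. Per the labels STAR and mm10 were used, and the methods name the Basepair platform; their versions and the rule of counting are not stated. The authors deposited, per library, a count, an FPKM and a TPM value for each of 33068 RefSeq transcripts. The counts are whole numbers with no normalization. FPKM was not used, and TPM entered no test.

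Counts were summed per symbol (24063 symbols). Replicates 1 and 2, which were near duplicates, were summed to 1 sample per group, leaving 4 samples. Testing used edgeR 4.0.16 under R 4.3.3 (filterByExpr, TMM, glmQLFit, glmQLFTest, Benjamini-Hochberg over 16598 genes), with limma 3.58.1 (voom) and DESeq2 1.42.0 as alternatives. The threshold for a call was 0.01 for the adjusted p together with a log2 fold change beyond 1 in either direction. The labels pair the groups by deposit, and the log2 ratio of later to earlier deposit in sham correlated with that in PNX (r = 0.702 over 14766 genes), so the fit with the deposit as a replicate block is printed beside the fit without it. Medians and counts over lists used counts summed per symbol; ratios printed with an interval used the transcript with the highest total count, with an exact (Clopper-Pearson) 95% interval on the PNX share. Alternatives were other scalings, filters and tools, the 6 libraries unsummed, and leaving out libraries. Blocked fits with another scaling, DESeq2 or 1 earlier library fewer, and replicates 1 and 2 alone, were added after the data were seen. The scripts were tested on simulated counts, which does not measure the error of the blocked fit in these samples.

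The 6 genes and the lists of marker genes were chosen with earlier results of these data known. Named genes were the 6, genes of the lists (from each the most abundant by TPM or those past a threshold could be named, any other with its list), and the 10 most alike with a mean count of at least 50. Of these 10, 1 is not reported here. Of the 15 further lists of marker genes (wider AT1, shared with ECs, regulators, AT2, transitional, pan-epithelial, club, ciliated, EC, aerocyte, lymphatic, fibroblast, smooth muscle and pericyte, mesothelial, leukocyte), 1 lymphatic gene was not tested. Positions are from GENCODE vM21 on GRCm38.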

Additional observations from a re-analysis of the deposited data

Results flagged for a closer look

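Igfbp2 and Itgb6 of the wider AT1 list went opposite ways in the deposits. Igfbp2, an insulin-like growth factor binding protein of mature AT1 cells, had a log2 ratio of PNX to sham of 0.51 within the earlier deposit and -0.91 within the later. Itgb6, an epithelial integrin subunit, had 0.37 and -1.03. With 1 sample per group in each deposit, the difference between deposits was not tested.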

How the results depend on the processing

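With 4 samples and no replicate block edgeR called 0 genes, and it did so under every other scaling and filter, at an adjusted p under 0.05, with limma-voom and with the most counted transcript per gene. DESeq2 called 572 genes, the replicate block 849 (645 higher), the 6 libraries without summing 409 without and 920 with the block, and 921 with DESeq2. The block called 624 genes with DESeq2 size factors (540 higher), 646 with upper-quartile scaling (548 higher), 629 with library size alone (550 higher) and 810 with DESeq2. Without 1 earlier library the blocked fit called 671 (sham replicate 1), 668 (sham replicate 2), 485 (PNX replicate 1) and 863 genes (PNX replicate 2). Replicates 1 and 2 alone, taken as separate, gave 1203. Of the 6 AT1 genes, 2 were called in each of the blocked fits, with 4 samples or with the 6 libraries, except 0 without PNX replicate 1, and 0 in the other fits. Leaving out replicates without the block gave 0 to 2 genes called, with 2 called without PNX replicate 3 and none of them among the 6, a median log2 fold change of the 6 from -2.11 to 0.097 and of the wider list from -1.42 to 0.35. The median of the 6 was -2.11, and that of the wider list -1.42, without PNX replicates 1 and 2. In the same fit the log2 fold change was -2.42 for Ager, -1.84 for Aqp5, -3.03 for Rtkn2 and -0.68 for Clic5. Without PNX replicate 3 the log2 fold change turned to 0.14 for Ager and 0.12 for Aqp5, and without sham replicates 1 and 2 to 0.24 for Ager, 0.10 for Aqp5, 0.28 for Rtkn2 and 0.10 for Clic5. Such fits compare libraries of different deposits. Within a deposit the median of the 6 stayed between -0.55 and -0.52 in the earlier and between -1.39 and -1.36 in the later under another scaling or with counts summed over transcripts. A lone sample in these fits was assumed to vary like the others. The 125 counts of Rtkn2 in PNX replicate 3 set the widest interval among the 6.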
